A study of Canis lupus familiaris with 6 samples.

Results

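The YAP and TAZ target genes CTGF, CYR61, ANKRD1, AMOTL1, AMOTL2, AJUBA, F3 and AMOT were examined in canine keratinocytes treated with cold atmospheric microwave plasma (CAMP). The 8 genes were found by their symbols among the 35993 genes of the deposited gene table, in which CTGF and CYR61 are the older names of CCN2 and CCN1. The cells were CPEK, a canine epidermal keratinocyte line labelled as wild type, and all libraries came from this line. In the CAMP group, the cells were exposed directly to the plasma for 30 s. The control group was treated with the gas alone, and the labels give it the same protocol. The cells were kept for a further 15 min, the medium was changed, and total RNA was collected 24 h later. No wound was stated for the RNA-Seq cultures. There were 3 gas libraries and 3 CAMP libraries. The labels do not say whether the 3 libraries of a group came from separate cultures. The study's statistics section speaks of independent experiments in general, without naming the RNA-Seq libraries. The p-values measure the spread between these libraries, which may be technical.

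YAP and TAZ (gene WWTR1) are transcriptional coactivators that enter the nucleus and bind DNA through the TEAD factors. The Hippo kinases phosphorylate them and keep them in the cytoplasm, while low cell density, stretching of the cell and an intact actin cytoskeleton favor their activity. In the epidermis, YAP and TAZ are known for their roles in basal keratinocyte proliferation and in wound repair. Their targets include secreted matricellular proteins (CTGF and CYR61), a nuclear ankyrin-repeat protein (ANKRD1) and the initiator of blood coagulation (F3, tissue factor). The angiomotins (AMOT, AMOTL1 and AMOTL2), which in turn restrain YAP, are also targets. So is the LIM protein AJUBA, which binds the LATS kinases.

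Counts assigned to genes summed to 45167120 in gas 1, 53166657 in gas 2 and 54082634 in gas 3. In CAMP 1, 2 and 3 they summed to 46479197, 43084921 and 44692385. The gas libraries stood apart from each other. On the first principal component, which held 71.1% of the variance, gas 1, gas 2 and gas 3 lay at -93.8, -23.4 and 21.7, whereas the CAMP libraries lay at 28.7, 33.2 and 33.6. Gas 3 was therefore nearest to the CAMP libraries and gas 1 farthest from them. Pairs of gas libraries differed by a chi-square of 85.4 to 318 per degree of freedom and pairs of CAMP libraries by 6.50 to 10.2, where sampling noise alone gives about 1. Values without single libraries are therefore also given for the target genes and for some named genes of the other lists. The calls of cell-type markers are given from all 6 libraries only. Levels are in CPM, which divides each count by the TMM-normalized size of its library, and genes are compared with each other only as FPKM, which also accounts for length. CAMP was compared with gas by edgeR's quasi-likelihood test over the 14708 genes that passed the filter on low counts. Fold changes are CAMP over gas on the log2 scale with a prior count of 2. In RNA from a whole culture, fewer cells of a type and less RNA per cell cannot be told apart.

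Across the 8 genes, the level per length varied widely. As the mean FPKM of the 6 libraries, AJUBA (127) was the highest, followed by CYR61 (52.6). F3 (22.1), AMOTL2 (19.6) and AMOTL1 (17.1) formed a middle group. CTGF (3.36) and ANKRD1 (0.637) were low, and AMOT (0.0188) was barely detected. The place of F3 in the middle group depended on the group of libraries. In gas, AMOTL2 (20.8 ± 3.30 FPKM, SD, n = 3) lay above AMOTL1 (16.3 ± 0.864) without overlap, and F3 (18.3 ± 3.52) overlapped both. In CAMP, F3 (25.8 ± 0.830) lay above both AMOTL2 (18.5 ± 0.637) and AMOTL1 (17.9 ± 0.128). AMOTL2 again lay above AMOTL1 without overlap, but only just. The lowest AMOTL2 value was 17.978 (CAMP 2) and the highest AMOTL1 value 17.966 (CAMP 1), and the means differed by less than the SD of AMOTL2.

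CTGF and CYR61, the secreted matricellular proteins that are most often used to read YAP activity, were higher in 1 CAMP library than in the other libraries. CTGF (chromosome 1, 25508082 to 25511058, CanFam3.1; gene ID 476202) was 5.66, 7.24 and 8.29 CPM in gas 1, 2 and 3. In CAMP 1, 2 and 3 it was 13.2, 7.46 and 8.92 CPM. CAMP 1 was the highest of the 6 libraries, and CAMP 2 lay below gas 3, so the groups overlapped. The means were 7.06 ± 1.33 CPM in gas and 9.87 ± 3.0 CPM in CAMP (SD, n = 3). The log2 fold change was 0.48 ± 0.25 (SE; 95% interval -0.13 to 1.09), with an unadjusted p of 0.103 and an adjusted p = 0.285 in the edgeR test, adjusted by Benjamini-Hochberg over all genes tested. Without CAMP 1 the log2 fold change of CTGF was 0.21, and without CAMP 2 it was 0.62, with an unadjusted p of 0.0483.

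CYR61 (chromosome 6, 62443285 to 62446246; gene ID 479967) was 136.9, 106.9 and 91.7 CPM in gas 1, 2 and 3. In the CAMP libraries it was 191.7, 96.9 and 119.6 CPM. The groups overlapped, with CAMP 1 the highest and gas 3 the lowest of the 6. The means were 111.8 ± 23.0 CPM in gas and 136.1 ± 49.5 CPM in CAMP (SD, n = 3). The log2 fold change was 0.28 ± 0.28 (SE; 95% interval -0.39 to 0.96), with an unadjusted p of 0.347 and an adjusted p = 0.498 in the edgeR test. Without CAMP 1 it turned to -0.05. The pair was ordered in opposite ways among the gas libraries, where CTGF was lowest and CYR61 highest in gas 1. The ratio of CYR61 to CTGF FPKM was accordingly 25.8, 15.8 and 11.8 in gas 1, 2 and 3, while in the CAMP libraries it was 15.5, 13.9 and 14.3.

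ANKRD1, a nuclear ankyrin-repeat protein that is strongly induced by YAP in many cell types, had the largest fold change of the 7 target genes tested in the edgeR fit; in limma on log2(FPKM + 1), which shrinks low genes, it was 0.45 on the log2 scale, below F3 at 0.49. It (chromosome 28, 5569120 to 5578393; gene ID 477764) was measured on few reads, with 27, 43 and 71 counts in gas 1, 2 and 3 and 95, 120 and 69 counts in the CAMP libraries. As CPM this was 0.583, 0.817 and 1.34 in gas and 2.05, 2.80 and 1.53 in CAMP. All 3 CAMP libraries lay above all 3 gas libraries, although the gap between gas 3 and CAMP 3 was small. The means were 0.913 ± 0.387 CPM in gas and 2.13 ± 0.639 CPM in CAMP (SD, n = 3). ANKRD1 rose 2.26-fold, a log2 fold change of 1.18 ± 0.36 (SE; 95% interval 0.31 to 2.04), at an unadjusted p of 0.0154. After adjustment over all genes it did not pass (adjusted p = 0.221, edgeR). The call was lost without CAMP 2, with a log2 fold change of 0.91 and an unadjusted p of 0.0515. For 3 libraries against 3, the smallest p that an exact two-sided permutation test can give is 0.1.

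F3, which encodes tissue factor, the membrane receptor that starts coagulation, was higher in CAMP with little spread among the CAMP libraries. F3 (chromosome 6, 54709581 to 54720603; gene ID 490153) was 29.6, 39.4 and 45.7 CPM in gas 1, 2 and 3. In CAMP 1, 2 and 3 it was 53.0, 55.3 and 53.2 CPM. The groups did not overlap, with gas 1 farthest from the CAMP libraries and gas 3 nearest. The means were 38.2 ± 8.12 CPM in gas and 53.8 ± 1.31 CPM in CAMP (SD, n = 3). F3 rose 1.41-fold (log2 fold change 0.49 ± 0.17, SE; 95% interval 0.09 to 0.90) at an unadjusted p of 0.0239, with an adjusted p = 0.223 in the edgeR test. On the log2 scale, F3 was higher by 0.32 when gas 1 was left out and by 0.60 when gas 3 was. Without gas 2 or without any 1 of the CAMP libraries, its unadjusted p was between 0.0541 and 0.0695, with a log2 fold change of 0.45 to 0.50.

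Of the angiomotins, scaffold proteins of cell junctions that bind YAP and hold it outside the nucleus, AMOTL1 and AMOTL2 had log2 fold changes of opposite sign. Neither passed the test, and both 95% intervals included 0. AMOTL1 (chromosome 21, 6109600 to 6280025; gene ID 485122) was 166.6, 156.0 and 158.6 CPM in gas and 179.8, 174.6 and 177.7 CPM in CAMP. The groups did not overlap, and the difference was small. The means were 160.4 ± 5.56 and 177.4 ± 2.60 CPM (SD, n = 3), a log2 fold change of 0.14 ± 0.07 (SE; 95% interval -0.03 to 0.32). It did not pass the test, with an unadjusted p of 0.0899 and an adjusted p = 0.275 (edgeR). Under upper-quartile normalization, which moved the median log2 fold change of all genes from 0.03 to -0.06, AMOTL1 was at 0.06. It was at 0.10 without gas 2 and at 0.09 without gas 3.

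AMOTL2 (chromosome 23, 31147420 to 31165120; gene ID 485669) was 118.4, 99.3 and 90.5 CPM in gas 1, 2 and 3. In the CAMP libraries it was 95.8, 88.6 and 90.4 CPM. Gas 1 stood above the rest, and gas 3 lay among the CAMP libraries. The means were 102.7 ± 14.3 and 91.6 ± 3.74 CPM (SD, n = 3), with a log2 fold change of -0.16 ± 0.12 (SE; 95% interval -0.45 to 0.12). The unadjusted p was 0.214 and the adjusted p = 0.378 (edgeR). AMOTL2 was at -0.07 without gas 1 and at -0.30 without gas 3. AMOT (chromosome X, 85742610 to 85807557; gene ID 481022), the founding member, had 8, 11 and 5 counts in gas and 9, 8 and 8 counts in CAMP. It did not pass the filter on low counts and was not tested, and a difference was not detectable at this depth.

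AJUBA, a LIM-domain protein that binds the LATS kinases at junctions, was the most abundant of the 8 genes per length, and its mean was lower in CAMP without passing the test. AJUBA (chromosome 8, 3272408 to 3302179; gene ID 480244) was 504.8, 481.6 and 441.1 CPM in gas 1, 2 and 3. In CAMP 1, 2 and 3 it was 419.6, 443.0 and 418.3 CPM. CAMP 2 lay just above gas 3, so the groups overlapped. The means were 475.8 ± 32.2 and 427.0 ± 13.9 CPM (SD, n = 3), with a log2 fold change of -0.16 ± 0.08 (SE; 95% interval -0.35 to 0.04). AJUBA did not pass, with an unadjusted p of 0.0957 and an adjusted p = 0.279 (edgeR). Without gas 3 its log2 fold change was -0.25.

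**Figure D1:**
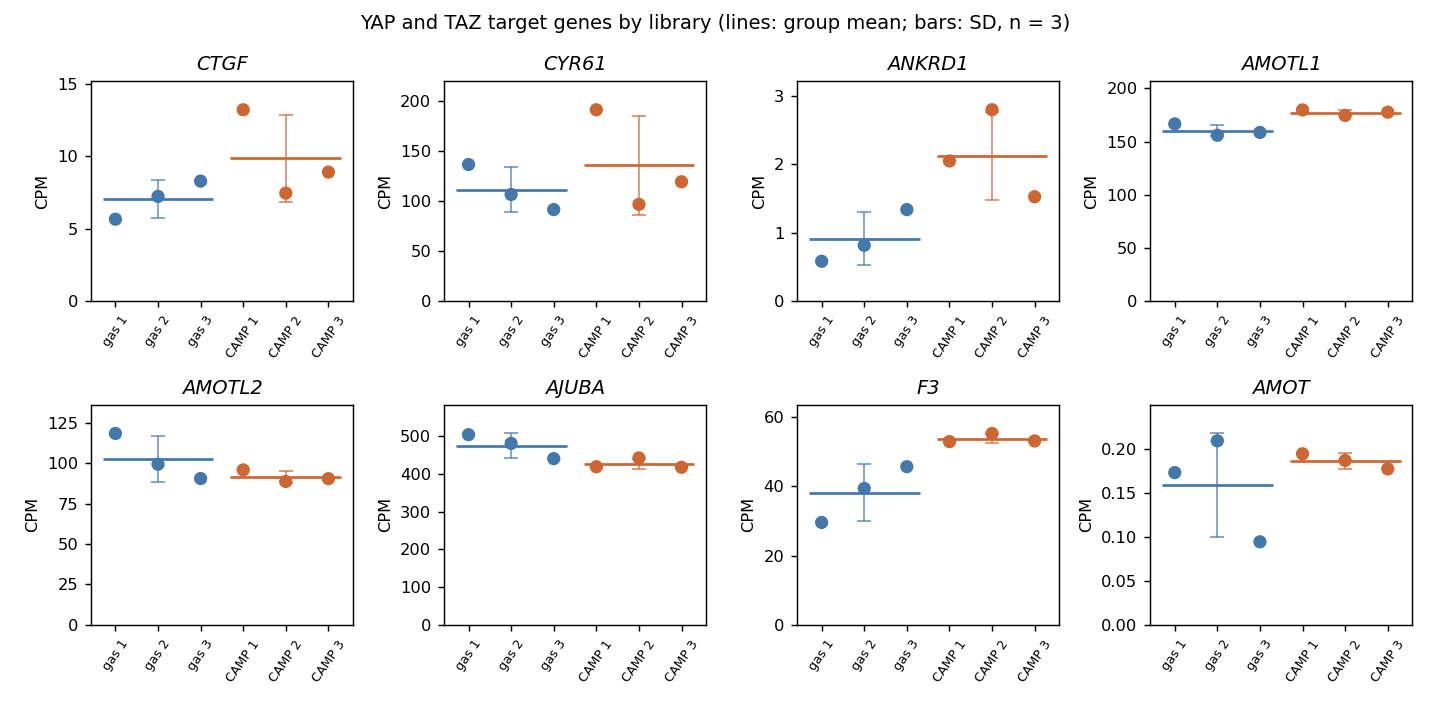
Level of the 8 target genes in each library, in CPM on a linear axis that starts at 0 (blue, gas; orange, CAMP); lines are group means and bars are SD, n = 3. ANKRD1, AMOTL1 and F3 do not overlap between the groups, and CTGF and CYR61 are highest in CAMP 1.

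Of the 8 genes, 7 were tested, and 2 of them (ANKRD1 and F3) were higher in CAMP at an unadjusted p under 0.05. None was lower. The number was 1 without gas 2, CAMP 1 or CAMP 3 (ANKRD1 in each) and 1 without CAMP 2 (CTGF, while ANKRD1 and F3 missed the threshold), and without gas 3 it was 2 higher and 2 lower (AMOTL2 and AJUBA). Of all 14708 genes tested, 6.81% were higher and 13.9% lower by the same measure, and without gas 3 these shares were 23.8% and 25.5%. An adjusted p under 0.05 was reached by 0 of the 7 genes and by 0% of all genes tested in edgeR, against 3040 genes at an unadjusted p under 0.05. With DESeq2, 301 genes reached it among all genes with a count, and 161 when each library had to hold at least 1 count, and none of the 7 was among them. In the first of these fits DESeq2 gave ANKRD1 no adjusted p, and in the second its adjusted p = 0.0801. Groups that did not overlap, with CAMP higher, were found for 3 of the 7 genes, beside 19% of all genes tested. Groups that did not overlap with CAMP lower were found for 0 of the 7 genes, beside 20.9% of all genes. The log2 fold change was above 0 in 5 genes and below 0 in 2. Its median over the 7 genes was 0.28, beside 0.03 over all genes tested. The median was 0.11 without gas 3, 0.13 without CAMP 1 and 0.44 without CAMP 2.

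**Figure D2:**
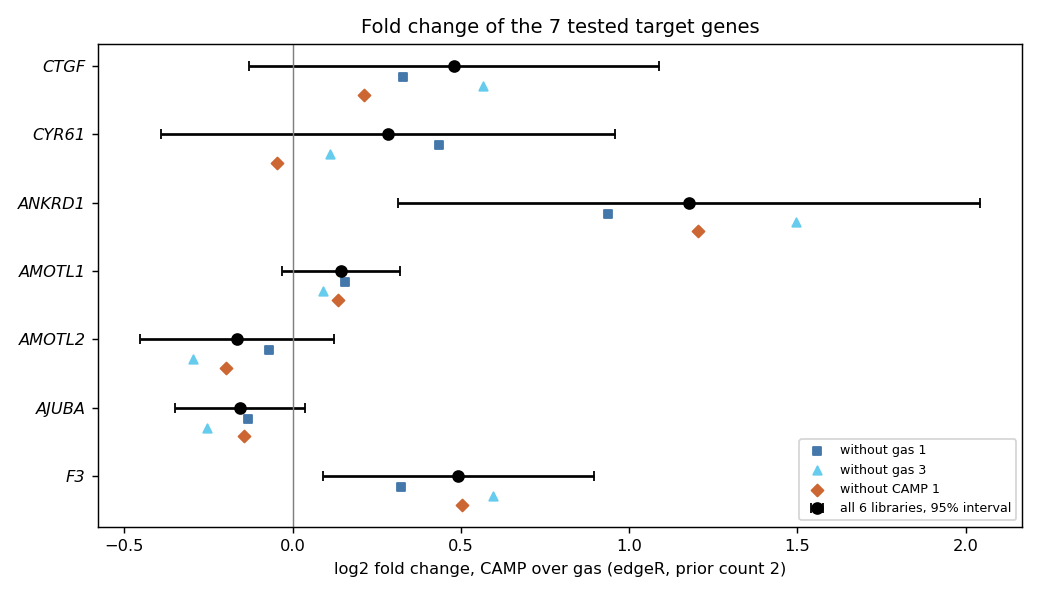
Log2 fold change of CAMP over gas for the 7 tested target genes, from edgeR with all 6 libraries (black, with its 95% interval) and without gas 1, gas 3 or CAMP 1 (colored marks). The interval lies above 0 for ANKRD1 and F3, and CYR61 falls to -0.05 without CAMP 1.

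The fold changes depended on the gas library used as the reference. Against the mean of the CAMP libraries, ANKRD1 was at -1.75, -1.30 and -0.61 in gas 1, 2 and 3 on the log2 scale. F3 was at -0.86, -0.45 and -0.24, and CTGF was at -0.76, -0.40 and -0.21. In these genes the difference was largest in gas 1 and smallest in gas 3. Over all tested genes, the median size of the difference was 0.48, 0.29 and 0.13 in gas 1, 2 and 3. AJUBA (0.24, 0.17 and 0.05) and AMOTL2 (0.37, 0.12 and -0.02) had the same order of sizes with the opposite sign, except for AMOTL2 in gas 3. CYR61 (0.07, -0.29 and -0.51) went the other way, and AMOTL1 (-0.09, -0.19 and -0.16) showed no such order.

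Without gas 3, the adjusted p was 0.0267 for ANKRD1, 0.0291 for F3 and 0.0376 for AJUBA in the edgeR test, and ANKRD1 and F3 were then higher and AJUBA lower in CAMP. In that comparison 33.1% of 14975 genes reached an adjusted p under 0.05, 4953 in number, beside 3 of the 7 target genes. With limma's voom and sample quality weights, ANKRD1, AMOTL1 and F3 were higher and AJUBA lower at an adjusted p under 0.05, beside 60.8% of all genes tested. Over all alternatives, with voom giving the smallest value, the adjusted p ranged from 0.00183 to 0.502 for ANKRD1, from 0.000314 to 0.502 for F3, from 0.00281 to 0.507 for AJUBA and from 0.00187 to 0.740 for AMOTL1.

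**Figure D3:**
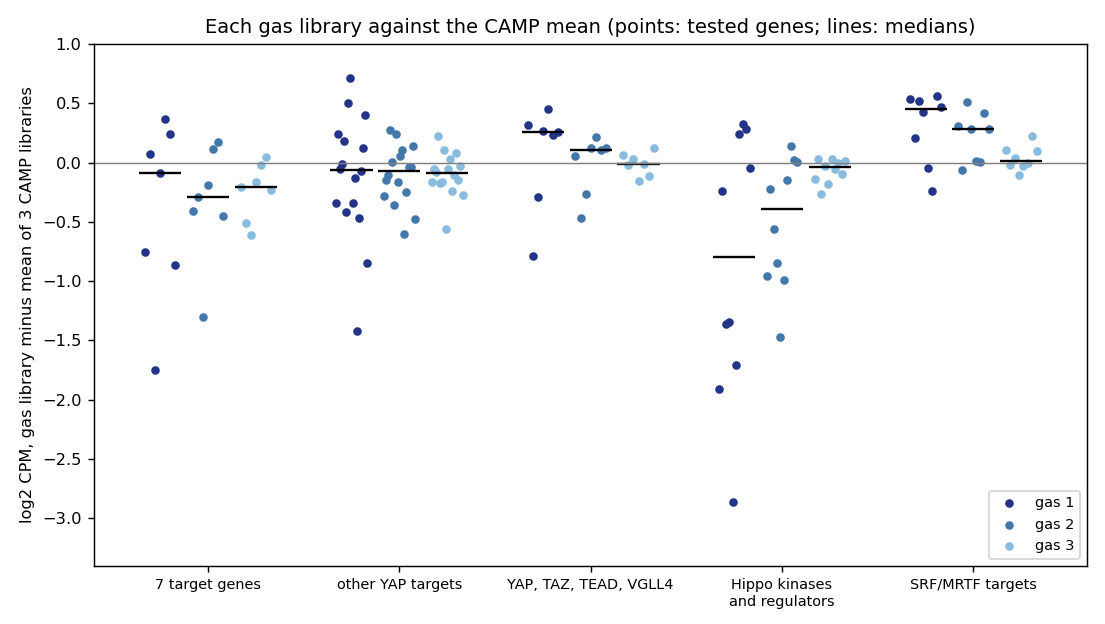
Difference in log2 CPM between each gas library and the mean of the 3 CAMP libraries, for the tested genes of 5 lists; points are genes and black lines are medians. For the Hippo kinases and regulators the median runs from -0.79 in gas 1 to -0.04 in gas 3, while for the 7 target genes it is -0.09, -0.29 and -0.21.

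The CAMP libraries were alike for most genes, and CTGF and CYR61 spread more among them. The CV of ANKRD1 was high too, at a much lower level. Among the CAMP libraries the coefficient of variation (CV, the SD as a percentage of the mean) was 36.4% for CYR61, 30.4% for CTGF and 30.1% for ANKRD1. It was 4.08% for AMOTL2, 3.25% for AJUBA, 2.43% for F3 and 1.47% for AMOTL1. The median CV was 4.12% over the 9253 tested genes with a mean of at least 10 CPM, and 10 of these, CYR61 included, had a CV at least as high as that of CYR61. Over all tested genes the median was 5.89%, and 7.39% of them had a CV at least as high as that of CTGF and 7.49% as that of ANKRD1. Counting error alone would give a CV of 1.28% for CYR61, 4.74% for CTGF and 10.3% for ANKRD1. In CTGF and CYR61 the high library was CAMP 1, at 1.61 and 1.77 times the mean of CAMP 2 and 3. In ANKRD1, CAMP 1 was 0.948 times that mean, and in F3 0.977 times, so not every target was high in CAMP 1. Among the gas libraries, the CV was 18.8% for CTGF, 20.6% for CYR61, 42.4% for ANKRD1 and 21.2% for F3, and the median over the same 9253 genes was 14.2%.

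**Figure D4:**
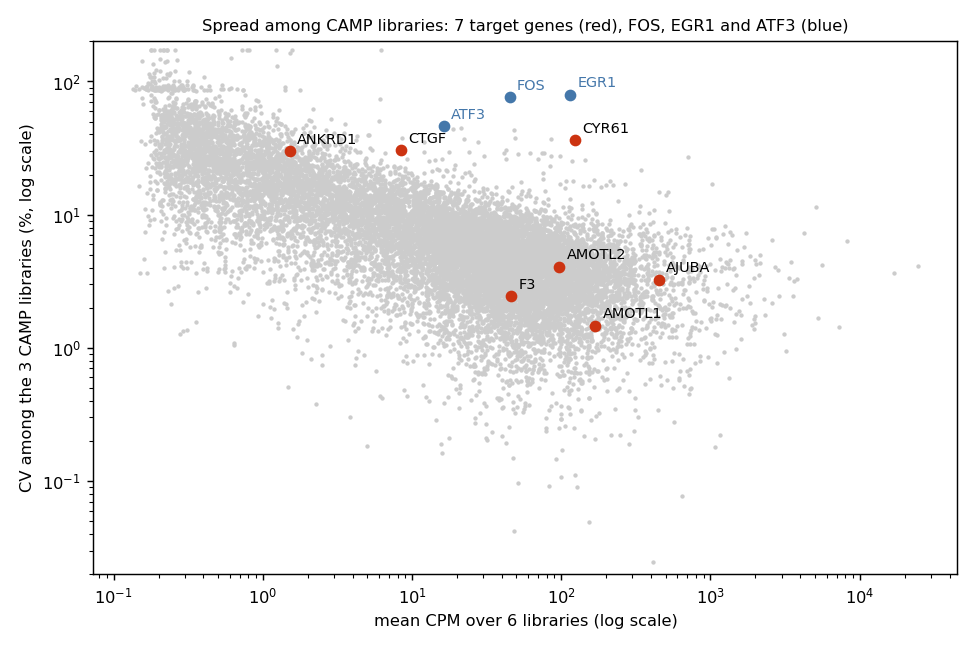
CV among the 3 CAMP libraries against the mean CPM of the 6 libraries, both on log axes, with all tested genes in grey, the 7 target genes in red, and FOS, EGR1 and ATF3 in blue. CYR61 (36.4%) lies far above the median of 4.12% for genes of at least 10 CPM, while AMOTL1 (1.47%), F3 and AJUBA lie below it.

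The genes whose levels over the 6 libraries were most like those of CTGF and CYR61 were sought by Pearson's r of log2 CPM among 9252 other tested genes with a mean of at least 10 CPM. This is a description, since the points share libraries and CAMP 1 weighs heavily in each r. CYR61 was most like FOS (r = 0.996), TRIB1 (r = 0.989) and BTG2 (r = 0.982). FOS, an immediate-early AP-1 factor that is induced within minutes of a stimulus, was 47.2, 29.9 and 23.9 CPM in gas 1, 2 and 3 and 105.9, 24.7 and 39.5 CPM in CAMP 1, 2 and 3. TRIB1 is a pseudokinase and BTG2 an antiproliferative protein, and both were highest in CAMP 1 and second highest in gas 1, as CYR61 was. CTGF was most like SGK1 (r = 0.979), IRF2 (r = 0.967) and PPM1D (r = 0.953). SGK1, a serum- and glucocorticoid-inducible kinase, was 61.7, 68.3 and 73.4 CPM in gas and 103.3, 72.3 and 74.6 CPM in CAMP, and was thus lowest in gas 1 and highest in CAMP 1 like CTGF.

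The transcript table was used to see which annotated transcripts carried the counts. It listed 28 transcripts of the 8 genes, of which 25 had a count and 22 passed the filter on low counts. At an unadjusted p under 0.05, 3 were higher and 1 was lower in CAMP, all 4 of AMOTL1, beside 8.59% of the 30886 transcripts tested in either direction. None reached an adjusted p under 0.05 in edgeR, where the smallest adjusted p over all transcripts was 0.278. The number at an unadjusted p under 0.05 was 1 without gas 1, gas 2 or CAMP 3. The counts of near-identical transcripts are estimates that share reads, so a shift between transcripts of 1 gene is uncertain.

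The AMOTL1 counts were divided over transcripts of similar length. The 8782-base transcript XM_542240 held 54.2%, 54.9% and 56.6% of the AMOTL1 counts in gas 1, 2 and 3 and 75.3%, 56.0% and 60.4% in CAMP 1, 2 and 3. The 8578-base transcript XM_005633350 held 33.4%, 38.0% and 33.2% in gas and 13.3%, 27.0% and 19.0% in CAMP. The shares of the first overlapped, since CAMP 2 lay below gas 3, while for the second all 3 CAMP libraries lay below all 3 gas libraries. Their log2 fold changes were 0.35 (unadjusted p of 0.0479) and -0.68 (unadjusted p of 0.0391). The 8551-base transcript XM_014122616 was a minor one, with 228, 173 and 312 counts in gas and 523, 448 and 494 counts in CAMP. Its groups did not overlap, and its log2 fold change was 1.20 ± 0.29 (SE), with an adjusted p = 0.520 (edgeR).

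**Figure D5:**
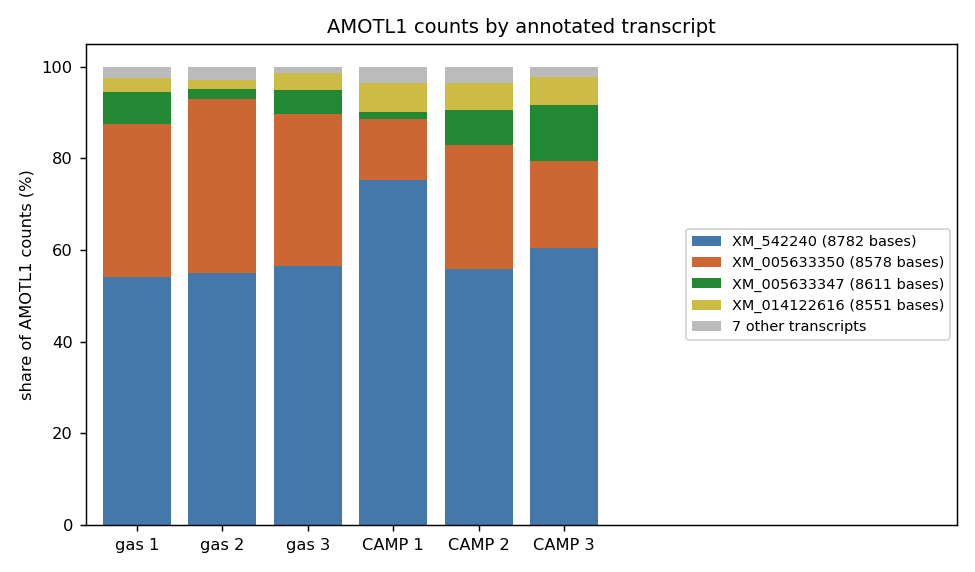
Share of the AMOTL1 counts (%) held by the annotated transcripts with the most counts in the 6 libraries, as stacked bars, with the remaining transcripts summed. The 8578-base transcript takes 33.2% to 38.0% in gas and 13.3% to 27.0% in CAMP.

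For AJUBA and CYR61, 1 transcript held most of the counts in every library. The 3449-base transcript held 87.6 ± 0.417% of the AJUBA counts in gas and 88.7 ± 0.271% in CAMP (SD, n = 3). CTGF and ANKRD1 had 1 annotated transcript each. For CYR61, the 2072-base transcript held between 88.1% and 94.2% in every library. The pairs of F3 and AMOTL2 transcripts divided the counts differently from library to library. The 1797-base F3 transcript held 58.5%, 57.8% and 39.9% in gas 1, 2 and 3 and 39.1%, 55.2% and 57.9% in CAMP, and the 4358-base AMOTL2 transcript held between 36.8% and 62.0%. The groups overlapped for both. Noncoding genes overlap the loci of CTGF, AMOTL1 and AJUBA. They had 0 counts in every library for AMOTL1 and AJUBA, and at most 7 counts for CTGF.

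The factors that act on these targets were tested in the same fit. YAP1 was 74.7, 62.0 and 62.6 CPM in gas 1, 2 and 3 and 61.0, 58.4 and 60.0 CPM in CAMP. The groups did not overlap, with CAMP lower, and the log2 fold change was -0.15 (unadjusted p of 0.199; adjusted p = 0.365, edgeR). WWTR1, which encodes TAZ, was 53.5, 66.8 and 91.2 CPM in gas and 90.7, 91.9 and 94.1 CPM in CAMP. Its level in gas 3 was within the CAMP range, and its log2 fold change was 0.39 (unadjusted p of 0.0891; adjusted p = 0.274, edgeR). Of the DNA-binding partners, TEAD3 (18.7) and TEAD1 (16.2) had the highest mean FPKM over the 6 libraries, followed by TEAD2 (13.1) and TEAD4 (7.13). The order depended on the libraries. TEAD3 and TEAD1 were at 20.2 and 15.3 FPKM in gas and at 17.1 and 17.2 FPKM in CAMP. In gas 1, TEAD2 (15.8) lay above TEAD1 (14.4). TEAD1 was 143.2 ± 18.0 CPM in gas and 160.8 ± 1.65 CPM in CAMP (SD, n = 3). The log2 fold change was 0.17 for TEAD1, -0.09 for TEAD2, -0.23 for TEAD3 and -0.08 for TEAD4. VGLL4, a cofactor that competes with YAP for TEAD, was 34.4 ± 1.94 CPM in gas and 30.6 ± 0.514 CPM in CAMP, without overlap (log2 fold change -0.17). None of these 7 genes passed at an unadjusted p under 0.05, while 6.81% of all genes tested were higher and 13.9% lower. Groups that did not overlap, with CAMP lower, were found for 2 of the 7 genes, beside 20.9% of all genes tested. With CAMP higher, the number was 0, beside 19% of all genes tested. The median log2 fold change of the 7 genes was -0.09. Without gas 3, WWTR1 and TEAD1 were higher and TEAD3 was lower at an adjusted p under 0.05 in edgeR, 3 of 7 genes beside 33.1% of all genes in that comparison. Leaving out gas 1 gave log2 fold changes of 0.21 for WWTR1, 0.09 for TEAD1 and -0.12 for TEAD3. YAP1, TEAD2 and TEAD4 were at -0.077, -0.007 and -0.019 without gas 1. Without gas 3 they were at -0.240, -0.243 and -0.216. With voom, YAP1 was at -0.052.

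Among 17 further genes of a general YAP target signature, 16 were tested, and 4 were higher and 0 lower at an unadjusted p under 0.05, beside 6.81% and 13.9% of all genes tested. Their median log2 fold change was 0.01, with 9 above 0 and 7 below. CRIM1, a transmembrane protein that binds growth factors, was 117.7 ± 10.9 CPM in gas and 145.9 ± 5.34 CPM in CAMP (SD, n = 3). TGFB2, a TGF-beta ligand, was 11.9 ± 2.32 and 17.0 ± 0.0490 CPM, and MYOF, a membrane repair protein, was 412.9 ± 26.2 and 494.7 ± 25.8 CPM. NT5E, the ecto-5'-nucleotidase CD73, was 104.8, 184.6 and 237.0 CPM in gas 1, 2 and 3 and 274.3, 285.9 and 280.4 CPM in CAMP. The 4 genes did not overlap between the groups, and in all 6 of the 16 genes were higher without overlap, beside 19% of all genes tested. For the 4 genes the log2 fold changes were 0.31, 0.51, 0.26 and 0.68, with unadjusted p-values of 0.0163, 0.0172, 0.0184 and 0.0485. In NT5E, as in F3, gas 1 was farthest from the CAMP libraries and gas 3 nearest. Leaving out gas 1 gave NT5E a log2 fold change of 0.39. The call of TGFB2 held without each library in turn. That of CRIM1 was lost without gas 2, CAMP 2 or CAMP 3, that of MYOF without gas 2, CAMP 1 or CAMP 3, and that of NT5E without gas 2 or any CAMP library. The log2 fold changes in these sets were 0.25 to 0.29 for CRIM1, 0.21 to 0.24 for MYOF and 0.64 to 0.70 for NT5E. CRIM1 and MYOF also missed the threshold under upper-quartile normalization. RBMS3 had 0 counts in every library, which allows up to 3 counts in each, and FOXF2 was under 1 CPM throughout.

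Of 10 Hippo kinases and regulators, all were tested, and 1 of them, SAV1, was higher at an unadjusted p under 0.05, a share near the 6.81% of all genes tested. SAV1, the scaffold of the MST kinases, was 22.7 ± 8.06 CPM in gas and 35.9 ± 1.27 CPM in CAMP (SD, n = 3; log2 fold change 0.66, unadjusted p of 0.0467). The call was lost without gas 2 or any CAMP library, where the log2 fold change was 0.61 to 0.69. It held without gas 1, with a smaller log2 fold change of 0.39 and an unadjusted p of 0.00896. The kinase STK3 and the adaptors MOB1A and MOB1B had log2 fold changes of 0.84, 0.64 and 1.12 and did not pass in this fit. With the replicate number as a block, STK3 and MOB1A were past an unadjusted p of 0.05. STK3 and MOB1B were past it in DESeq2 when each library had to hold at least 1 count. MOB1A and MOB1B were past it in both limma fits on FPKM, and STK3 in that on log2(FPKM + 1). All 3 were past it with voom. Without gas 1 the log2 fold changes were 0.49, 0.37 and 0.68. Without gas 3 they were 1.32, 1.03 and 1.96, and all 3 then passed, with adjusted p-values of 0.0286, 0.0203 and 0.0244 in the edgeR test, in a comparison in which 33.1% of all genes passed. Over all settings and the sets without 1 library, the adjusted p ranged from 0.000590 to 0.502 for STK3, from 0.000230 to 0.502 for MOB1A and from 0.000221 to 0.502 for MOB1B. Their gas values differed widely, with MOB1B at 4.32, 11.4 and 28.0 CPM in gas 1, 2 and 3 and between 30.4 and 33.9 CPM in CAMP. The list's median log2 fold change was 0.39. LATS2, which is both a kinase of the pathway and a YAP target, had a log2 fold change of -0.02.

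CTGF, CYR61 and ANKRD1 also respond to SRF and its actin-regulated coactivators MRTF, so targets of SRF were set beside them. Of 10 such genes, 8 were tested, and 0 were higher and 2 lower in CAMP at an unadjusted p under 0.05, beside 6.81% and 13.9% of all genes tested. FLNA, an actin cross-linker, fell from 968.7 ± 113.5 to 730.4 ± 27.0 CPM (SD, n = 3; log2 fold change -0.41, unadjusted p of 0.00628), and this call held without each library in turn. ACTB, beta-actin, was 1589 ± 205.0 CPM in gas and 1297 ± 20.1 CPM in CAMP (log2 fold change -0.29, unadjusted p of 0.0288), a call that was lost without gas 2 or any CAMP library and in limma on FPKM, with log2 fold changes of -0.33 to -0.29 there. SRF itself was 43.0 ± 6.46 and 34.3 ± 1.98 CPM, with an unadjusted p of 0.0506, which was 0.0403 to 0.0498 in DESeq2 and under the other factors and filters, and TAGLN had a log2 fold change of -0.36 (unadjusted p of 0.0907). The median log2 fold change of the tested genes was -0.26. The smooth muscle genes ACTA2 and CNN1 were at or near 0 counts and were not tested.

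The libraries carried the markers of keratinocytes. The keratinocyte markers KRT5, KRT14, KRT15, TP63, ITGA6 and ITGB4 were all detected, with a summed level of 55037, 52691 and 45630 CPM in gas 1, 2 and 3 and of 44943, 44539 and 42122 CPM in CAMP, led by KRT5. At an unadjusted p under 0.05, KRT5 and KRT14 were lower in CAMP (log2 fold changes -0.21 and -0.30) and ITGA6 was higher (0.35), while TP63 (0.18), KRT15 (-0.01) and ITGB4 (-0.20) did not pass. Fibroblast markers summed to 1.35 to 2.17 CPM in each library, led by COL1A1, with PDGFRB, LUM and DCN at 0, and COL1A1 was lower in CAMP (log2 fold change -0.68, unadjusted p of 0.0441), while COL1A2 was at 0.54 and did not pass. Melanocyte markers summed to 5.83, 5.74 and 9.12 CPM in gas and to 9.50, 8.86 and 9.78 CPM in CAMP, led by MITF, with TYR and DCT at 0. MLANA, with 4, 0 and 0 counts in gas and 13, 16 and 11 in CAMP, was higher at an unadjusted p of 0.0102, while PMEL, with 35, 24 and 39 counts in gas and 15, 13 and 27 in CAMP, was at -0.61 on the log2 scale and did not pass. Endothelial markers summed to 4.04 to 5.03 CPM in gas and to 5.62 to 6.73 CPM in CAMP, led by KDR, with PECAM1 at 0. KDR and CDH5 were higher at unadjusted p-values of 0.0275 and 0.0412 (edgeR). TEK went the other way, with 6, 0 and 4 counts in gas and 0 in every CAMP library, and was too low to be tested. Beside these marker calls, 6.81% of all genes tested were higher and 13.9% lower at an unadjusted p under 0.05. Leukocyte markers summed to 1.42 to 2.94 CPM, led by CD68, with PTPRC and CD3E at 0. The part of these differences in the results was not tested.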

How the data were processed

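RNA-Seq of CPEK cells was analysed for 3 gas and 3 CAMP libraries prepared with a stranded mRNA kit. The submitters' processing notes name FastQC 0.11.7, Trimmomatic 0.38, HISAT2 2.1.0, StringTie 2.1.3b and CanFam3.1. The authors deposited raw read counts for genes and for transcripts, as whole numbers. They also deposited FPKM values, scaled to length and to mapped reads, and 6 TPM columns a table, which were not used. The annotation release, and how reads on overlapping genes were counted, are not given in the sources used here. The deposited transcript table gave the transcript lengths and the coordinates. Names were checked in RefSeq (30915 of 35993 gene IDs and all 8 target genes matched).

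The software was DESeq2 1.42.0, edgeR 4.0.16 and limma 3.58.1 in R 4.3.3. The counts were normalized by TMM and filtered by filterByExpr, and CAMP was compared with gas by the quasi-likelihood test with a prior count of 2 and Benjamini-Hochberg adjustment over all genes, and likewise over all transcripts. Each SE is the log2 fold change divided by the square root of its F statistic. The steps were run on simulated counts with 200 genes changed 3-fold and the same dispersion of 0.05 in every gene and library. There edgeR recovered 100% of the changed genes with 13 false calls. The simulation had neither the unequal spread of the gas and CAMP libraries nor small fold changes. It therefore checks the code and does not show how the tests behave on these libraries. Total counts were 43084921 to 54082634, and the CVs from counting and the limit for a count of 0 cover counting error only. The alternatives were DESeq2 with 2 filters, RLE and upper-quartile factors, no filter, a minimum of 10 counts per library, a replicate block, voom with sample quality weights, limma on log2(FPKM + 1) and log2(FPKM + 0.1), and leaving out each library. The genes named are the 8 targets, the 7 factors, up to 4 genes with the smallest p of each other list, and the 3 genes most like CTGF and CYR61; other genes (LATS2, FOXF2, RBMS3, ACTA2, CNN1 and those of the observations) and the CV were added after their values were seen. The targets and lists were chosen with earlier results of these data known. No sequence is printed.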

Additional observations from a re-analysis of the deposited data

How the results depend on the processing

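Over 16 alternatives, 416 values of the 26 tested genes named by rule were recomputed, and 348 kept their direction and their side of an unadjusted p of 0.05, 27 were no longer past it, 40 were newly past it and 1 reversed, namely CYR61, whose log2 fold change was -0.046 without CAMP 1 (-0.046 to 0.44 without 1 library); the causes were not tested. The number of target genes past the threshold was 2, 6 with voom and 1 to 4 without 1 library. For the other YAP targets it was 4, 2 with upper-quartile factors, 9 with voom and 1 to 7 without 1 library. Of all genes tested it was 3040 of 14708, 3162 with upper-quartile factors and 9541 with voom. Without 1 library it ran from 1024 of 14926 (without CAMP 3) to 7374 of 14975 (without gas 3), so the larger counts came where many genes passed. For transcripts of the target genes it was 4, 2 without the filter, 2 with the replicate block and 1 to 4 without 1 library. The share of all transcripts, 8.59%, was computed for the first of these only. The median log2 fold change of the target genes was 0.28, and 0.18 to 0.35 under the other settings and 0.11 to 0.44 without 1 library.

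Across all genes, 3040 were past an unadjusted p of 0.05, against 9541 with voom, 7374 without gas 3, 1235 without gas 2, and 1230, 1441 and 1024 without CAMP 1, 2 and 3. An adjusted p under 0.05 was reached by 0 genes, against 301 and 161 with DESeq2, 8944 with voom, 3 with log2(FPKM + 0.1), 4953 without gas 3 and 1 without gas 1. Of the Hippo genes 1 was past an unadjusted p of 0.05, against 7 with voom, 3 with the second DESeq2 filter, 4 and 3 in limma on FPKM, and 0 to 6 without 1 library. Of the YAP, TAZ and TEAD list it was 0, against 4 with voom and 0 to 4 without 1 library. Of the SRF targets it was 2, against 3 in DESeq2 and under the other factors and filters, where SRF also passed, 5 with voom, 1 in limma on FPKM and 1 to 5 without 1 library. AMOT was too low to be tested, and the CV of ANKRD1 among the CAMP libraries (30.1%) was above the 10.3% that counting alone gives.

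The replicate numbers of the labels gave no clear pairing of the libraries. The deviations of same-numbered libraries correlated at 0.13, 0.02 and 0.05, of which the first was the largest of all pairs. Pairs with different numbers correlated at -0.14 to 0.09, and gas 3 correlated best with CAMP 2 (0.09). With the replicate block, 2 target genes and 4 other YAP targets were past the threshold, as were 2775 genes in all, and 3 Hippo genes were past it in place of 1.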

Other observations

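Among the 9253 tested genes with a mean of at least 10 CPM, those with the largest CV among the CAMP libraries were listed, a description chosen after the values were seen. No gene group was tested in it. EGR1, an immediate-early zinc finger factor, had the largest CV (79.8%) and was 150.4, 82.9 and 63.5 CPM in gas 1, 2 and 3 and 246.5, 44.1 and 101.5 CPM in CAMP 1, 2 and 3. FOS followed at 76.2%, ATF3 at 46.0%, DUSP5 at 44.8% and A2ML1 at 43.6%. The phosphatase DUSP1 (43.6%) was 43.5, 32.8 and 27.7 CPM in gas and 92.0, 40.9 and 52.0 CPM in CAMP. In EGR1, FOS, ATF3, DUSP1 and CYR61 alike, gas 1 was the highest gas library, CAMP 1 the highest of all 6, and CAMP 2 the lowest CAMP library. This order was not particular to those genes, as DUSP5, A2ML1 and ENDOU had it too. A2ML1 was 26.6, 17.1 and 9.84 CPM in gas and 27.3, 10.4 and 21.0 CPM in CAMP.

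Other genes among the 25 with the largest CV were CRNN and SBSN, which are known from differentiating keratinocytes. CRNN, which encodes cornulin, was 88.4, 47.7 and 24.8 CPM in gas and 61.8, 28.8 and 42.0 CPM in CAMP. SBSN, which encodes suprabasin, was 160.1, 87.1 and 56.0 CPM in gas and 118.7, 66.6 and 99.3 CPM in CAMP. In both, gas 1 was the highest of the 6 libraries, and CAMP 1 the highest CAMP library. The same held for other genes among the 25, such as ZFP36 (111.2 CPM in gas 1 and 92.4 CPM in CAMP 1) and PPP1R15A (31.9 and 29.6 CPM). The part of these genes in the spread of CYR61 was not tested.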
